A study of Homo sapiens with 17 samples.

Results

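Interferon-stimulated genes are the genes that cells transcribe more strongly after they sense an interferon. The 31 described here were chosen by name with earlier results of these data known. All 31 were found among the 20218 genes of the deposited expression table. They were followed across cells made by directed differentiation of the H9 human embryonic stem cell line carrying a SHOX2 reporter, which the labels describe as sinoatrial-node-like cells. Cells were sorted on GFP and mCherry, and RNA-seq libraries were made at day 40 and day 25 of differentiation. GFP+mCherry+ cells had 2 libraries at day 40 (libraries 10 and 13) and 3 at day 25 (1, 4 and 7). GFP-mCherry+ cells had 3 at day 40 (11, 14 and 17) and 3 at day 25 (2, 5 and 8). GFP-mCherry- cells had 3 at day 40 (12, 15 and 18) and 3 at day 25 (3, 6 and 9). All 6 groups share the H9 background, and none of them is labelled as treated with an interferon or infected. The growth protocol describes a cardiomyocyte procedure with CHIR99021, BMP4 and Activin A, and a sinoatrial procedure that adds such compounds as retinoic acid, SU5402 and Tyrphostin AG 490, an inhibitor of the kinase JAK2. It does not say which procedure each sorted population came from, nor does it name the gene behind mCherry. Nothing in the labels ties the libraries to separate cultures, and the p-values therefore measure a spread that may be technical.

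Type I and type III interferons bind receptors at the cell surface and activate the kinases JAK1 and TYK2. These phosphorylate STAT proteins, and STAT2 joins IRF9 and a STAT partner in the complex ISGF3, which binds the interferon-stimulated response element (ISRE) in promoters. Interferon gamma acts through a STAT dimer that binds the gamma-activated site (GAS). Many of the induced proteins act against viruses: IFIT proteins bind viral RNA, OAS enzymes make the oligoadenylate that activates RNase L, MX proteins are GTPases that block viral particles, and IFITM proteins hinder fusion at membranes. Pluripotent cells are known to respond weakly to interferon, and the response is gained with differentiation.

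RefSeq promoter windows (GRCh38.p14, from 250 bases before the start of a gene to 50 bases after it) were matched for 24 of the 31 genes. The letters GAAA, any 2 bases and GAAA again, read on both strands as an ISRE, occurred in the windows of 17 of these 24 genes (70.8%), against 1195 of the 27305 genes with a window (4.38%). The letters TTCNNNGAA, read on both strands as a GAS, occurred in 8 of the 24 (33.3%), against 2560 of the 27305 (9.38%). In 4 genes, IFI27, IFITM1, MX1 and BST2, a GAS match overlapped an ISRE match. The 7 genes with a window and no match to the ISRE letters were STAT2, XAF1, DDX58, IRF1, IRF9, OAS1 and IFI35. The search fixed the spacing at 2 bases. Windows of OAS1, DDX58, XAF1 and IFI35 hold GAAA and again GAAA after a single base, a spacing that was not searched. A gene without a match is therefore not shown to lack an ISRE. A match is a description of the letters and not of a bound site. The 250 bases before the start are printed 5′ to 3′ on the strand of the gene for 5 genes, with ISRE matches in capitals. They are shown because IFIT3 had the smallest adjusted p between the mCherry+ populations, HERC5 and IFIH1 were called and held the most matches, STAT2 was called without one, and ISG15 held matches but varied unlike IFIT3. The windows lie at chr10:89332279-89332528 (plus strand) for IFIT3, at chr4:88456869-88457118 (plus strand) for HERC5, at chr2:162318685-162318934 (minus strand) for IFIH1, at chr12:56360108-56360357 (minus strand) for STAT2 and at chr1:1013247-1013496 (plus strand) for ISG15.
IFIT3: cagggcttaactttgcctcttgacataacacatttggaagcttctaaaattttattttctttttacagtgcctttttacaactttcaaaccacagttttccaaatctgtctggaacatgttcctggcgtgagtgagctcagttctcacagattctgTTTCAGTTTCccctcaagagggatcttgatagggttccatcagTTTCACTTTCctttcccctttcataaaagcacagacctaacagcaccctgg
HERC5: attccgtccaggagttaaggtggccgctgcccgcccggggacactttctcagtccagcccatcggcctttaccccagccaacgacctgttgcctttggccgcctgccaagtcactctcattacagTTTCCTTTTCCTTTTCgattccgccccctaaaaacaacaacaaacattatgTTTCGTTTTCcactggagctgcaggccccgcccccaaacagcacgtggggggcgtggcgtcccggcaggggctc
IFIH1: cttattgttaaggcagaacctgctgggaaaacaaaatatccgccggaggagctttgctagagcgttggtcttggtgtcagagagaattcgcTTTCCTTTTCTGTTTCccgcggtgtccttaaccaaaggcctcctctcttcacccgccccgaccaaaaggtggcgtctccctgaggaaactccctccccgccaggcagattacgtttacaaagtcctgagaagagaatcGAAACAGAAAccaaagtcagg
STAT2: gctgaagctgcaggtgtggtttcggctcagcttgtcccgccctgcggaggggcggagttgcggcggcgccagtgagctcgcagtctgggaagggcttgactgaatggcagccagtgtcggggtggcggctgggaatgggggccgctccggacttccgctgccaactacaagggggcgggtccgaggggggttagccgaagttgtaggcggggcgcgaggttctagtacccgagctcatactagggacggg
ISG15: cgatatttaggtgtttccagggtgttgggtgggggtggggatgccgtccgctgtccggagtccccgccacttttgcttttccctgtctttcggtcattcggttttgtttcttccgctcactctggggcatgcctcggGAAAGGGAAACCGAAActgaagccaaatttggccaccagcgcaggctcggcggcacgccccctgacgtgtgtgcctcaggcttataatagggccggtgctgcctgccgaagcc
The matches of IFIT3 span positions -94 to -85 and -51 to -42, counted from the start of the gene. RefSeq lists a further start of IFIT3 upstream, whose window before the start (chr10:89327747-89327996) holds matches at -156 to -147 and -122 to -113, and the downstream one is printed. Those of HERC5 span -125 to -116, -119 to -110 and -74 to -65, and those of IFIH1 span -159 to -150, -153 to -144 and -21 to -12. In ISG15 the pair overlaps, at -113 to -104 and -107 to -98. In HERC5 and IFIH1 the first pair overlaps in the same way.

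The unit was FPKM, fragments scaled to the length of the transcript and to the size of the library, and read depth is unknown, so no counting intervals are given. Library sums ran from 565805 to 659878 FPKM. SHOX2, the reporter gene, was listed at 58.5 and 90.2 FPKM in GFP+mCherry+ cells at day 40 and at 49.0, 138.9 and 87.4 FPKM at day 25, against at most 2.41 FPKM in any library of the other populations, so the GFP sort matched its label. Fewer genes were above 0 in libraries 13 (16489) and 14 (16597) than in any other library (17104 or more). Several libraries also stood apart in the interferon-stimulated genes themselves. In library 3 (GFP-mCherry- at day 25), 13 of the 26 genes with at least 1 FPKM were at least 2-fold above the mean of the other libraries of the group, against 3.21% of all genes. The same held for 9 of 23 in library 2 (GFP-mCherry+ at day 25; 4.58% of all genes) and for 10 of 28 in library 13 (GFP+mCherry+ at day 40; 9.49% of all genes). Library 13 held the highest value of all 17 libraries for 11 of the 31 genes, library 3 for 8 and library 1 for 5. Results of the 31 genes that rest on 1 library are given below with and without it.

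**Figure D1:**
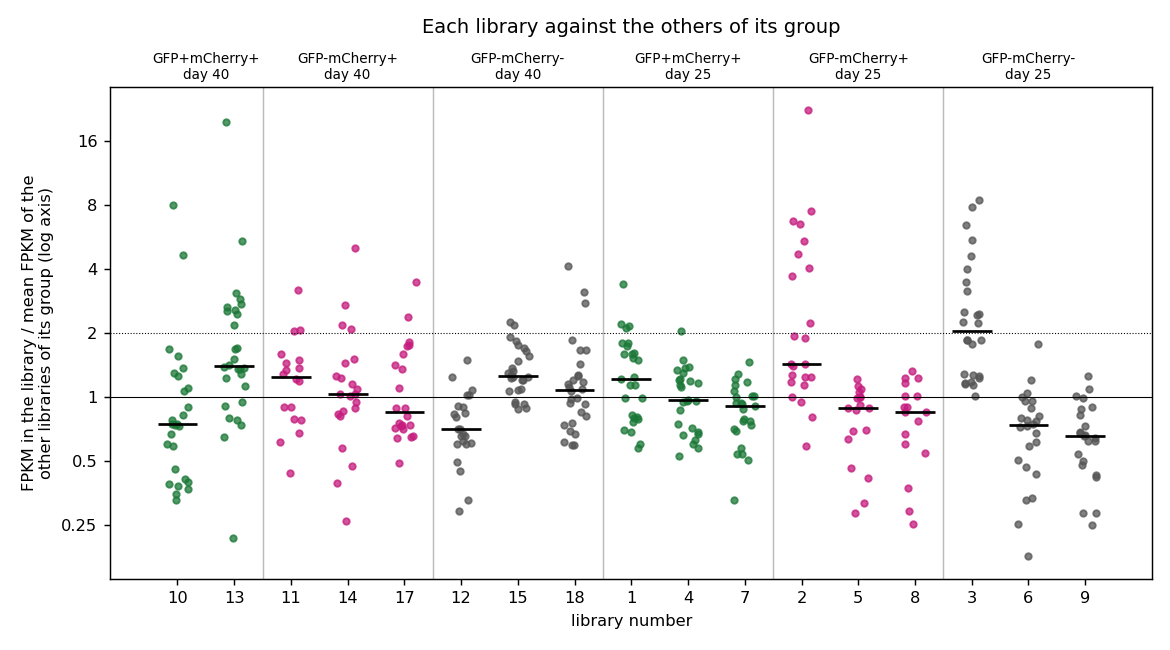
Each dot is one interferon-stimulated gene with at least 1 FPKM in a library, plotted on a log axis as its FPKM divided by the mean of the other libraries of the same group; bars are medians and the dotted line marks 2-fold. Library 3 has the highest median ratio, 2.04, with 13 of its 26 genes at or above 2-fold.

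Listed values ran from 0 to 715 FPKM, the highest in IFITM3. Group means were at least 1 FPKM in every group for 20 of the 31, at least 30 FPKM in every group for 6 (IFITM1, IFITM2, IFITM3, BST2, STAT2 and IRF9), and under 1 FPKM in every group for OAS2 and USP18. GFP+mCherry+ cells at day 40 had the highest group mean of 19 genes, with n = 2. GFP-mCherry- cells at day 25 had the highest of 6, GFP+mCherry+ cells at day 25 of 3 and GFP-mCherry+ cells of 2 at day 25 and 1 at day 40. The lowest group mean was that of GFP-mCherry+ cells for 13 genes at day 40 and for 9 at day 25. The matching shares over all genes were not computed. A mean of 2 libraries is also more easily extreme than that of a larger group. Library 13, 1 of those 2, held the highest value of all 17 libraries for 11 of the 31 genes.

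**Figure D2:**
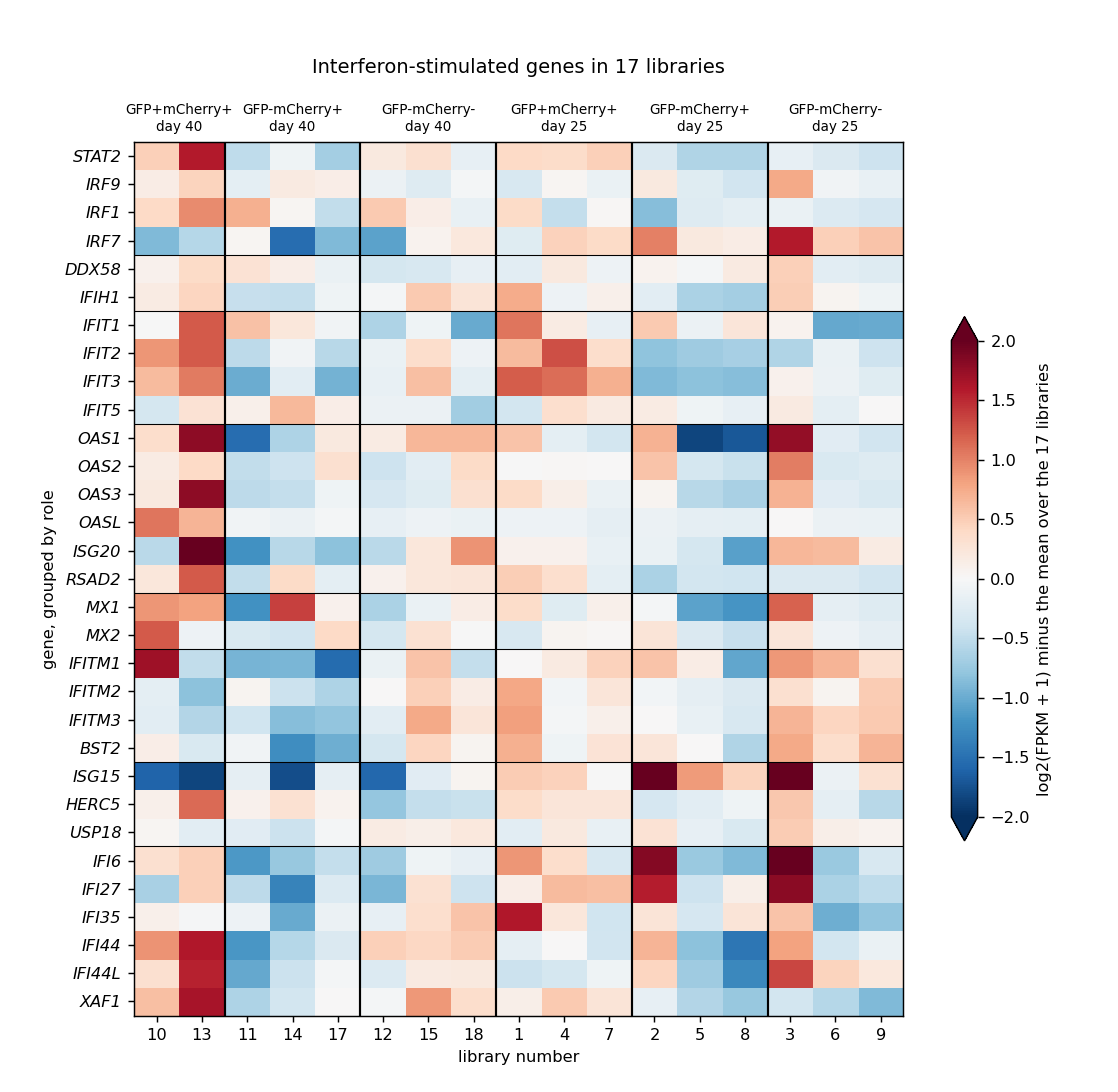
Colour shows log2(FPKM + 1) of each of the 31 genes minus its mean over the 17 libraries, with the scale capped at 2 in either direction; columns are libraries by group. Library 13 is highest of all libraries for 11 genes and library 3 for 8, while IFIT2 and IFIT3 are high in all 5 GFP+mCherry+ libraries.

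Among the transcription factors, STAT2 and IRF9, the DNA-binding core of ISGF3, were abundant. IRF9 averaged 65.7 ± 9.39 FPKM in GFP+mCherry+, 54.9 ± 7.76 in GFP-mCherry+ and 48.3 ± 3.63 in GFP-mCherry- cells at day 40 (SD, n = 2, 3 and 3). At day 25 it averaged 48.4 ± 6.08 FPKM in GFP+mCherry+, 48.6 ± 10.7 in GFP-mCherry+ and 62.9 ± 24 in GFP-mCherry- cells (SD, n = 3 each), and the groups overlapped at both days apart from GFP+mCherry+ over GFP-mCherry- cells at day 40. IRF1, which binds ISRE-like sites, averaged between 4.84 FPKM (GFP-mCherry+ at day 25) and 11.5 FPKM (GFP+mCherry+ at day 40). IRF7, which amplifies interferon transcription, averaged between 2.5 FPKM (GFP+mCherry+ at day 40) and 10.2 FPKM (GFP-mCherry- at day 25). Of the RNA sensors, DDX58 (RIG-I) kept to a narrow range, 2.54 to 5.28 FPKM over all 17 libraries.

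IFITM3 had the highest mean of the 31 genes in every group. BST2 (tetherin), which holds budding virions at the cell surface, averaged 136 ± 29.3, 89.2 ± 40.8 and 151 ± 40.6 FPKM at day 40 in GFP+mCherry+, GFP-mCherry+ and GFP-mCherry- cells. At day 25 it averaged 181 ± 50.5 FPKM in GFP+mCherry+, 135 ± 38.3 in GFP-mCherry+ and 218 ± 31.9 in GFP-mCherry- cells. IFITM2 averaged between 85.0 FPKM (GFP+mCherry+ at day 40) and 152 FPKM (GFP+mCherry+ at day 25). The MX and IFIT effectors were lower. MX1 averaged 5.24 ± 0.22 FPKM in GFP+mCherry+ cells at day 40 (SD, n = 2) and between 1.19 and 3.73 FPKM in the other groups, whose SDs reached 3.85 FPKM. IFIT1 averaged between 11.3 and 29.2 FPKM and IFIT5 between 5.04 and 8.18 FPKM. IFI27, a small membrane protein, ranged from 1.48 to 20.8 FPKM and IFI35 from 3.72 to 27.8 FPKM over single libraries. RSAD2 (viperin), which makes a chain-terminating nucleotide, averaged 2.60 ± 1.70 FPKM in GFP+mCherry+ cells at day 40 (SD, n = 2) and at most 1.41 FPKM in the other groups.

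The first comparison asks how the SHOX2-reporter-positive mCherry+ cells differ from the mCherry+ cells without it. Differences are log2(FPKM + 1) in the first-named minus the second-named group, with the standard error of limma's fit, and they understate the change of low genes. A gene was tested where 2 or more libraries reached 1 FPKM, and a gene was called at a Benjamini-Hochberg adjusted p under 0.05 over all 14845 genes tested. Of the 31 genes 28 were tested, and MX2, OASL and USP18 were too low.

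At day 40, 9 of the 28 tested genes were higher in GFP+mCherry+ than in GFP-mCherry+ cells and 0 were lower, while 16.2% of all tested genes were higher and 9.3% lower. The 9 are 32.1% of the genes tested here. The median difference was 0.66, against 0.08 over all tested genes, and 13 genes did not overlap between the groups with GFP+mCherry+ on top (46.4%, against 26.4% of all tested genes). The 9 were STAT2, IFIT3, IFIT2, XAF1, IFI44, OAS3, IFITM1, ISG20 and IFI44L. In bulk RNA, fewer cells of a type and less RNA per cell cannot be told apart.

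IFIT3, which forms complexes with IFIT1 and IFIT2 on viral RNA, lies at chr10:91087651-91100728 (hg19, as are all gene positions that follow). It was listed at 6.54 and 9.00 FPKM in GFP+mCherry+ cells at day 40, against 1.44, 3.20 and 1.51 FPKM in GFP-mCherry+ cells. The groups did not overlap, and the difference was 1.56 ± 0.29 (limma, adjusted p = 0.00144). IFIT2 (chr10:91061712-91069033) had 3.19 and 4.35 FPKM in GFP+mCherry+ cells, against 0.575, 1.18 and 0.554 FPKM in GFP-mCherry+ cells. Its groups did not overlap either, with a difference of 1.44 ± 0.27 (adjusted p = 0.00176). STAT2 (chr12:56735381-56753939) had 89.4 and 195 FPKM in GFP+mCherry+ cells, against 44.7, 60.5 and 39.6 FPKM in GFP-mCherry+ cells. Both GFP+mCherry+ libraries were above all 3 others, and the difference was 1.46 ± 0.27 (adjusted p = 0.0014). Without library 13 it was 0.90 with an adjusted p of 0.0431. IFIT2, IFIT3 and STAT2 were called at day 40 without any single library, and without library 13 the values were 1.26 for IFIT2 (adjusted p = 0.0387) and 1.35 for IFIT3 (adjusted p = 0.035).

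The other 6 calls at day 40 were each lost without some single library. Without library 10 or 13 only 1 GFP+mCherry+ library is left, so a lost call can also come from the smaller group. XAF1 and IFI44 kept their calls without library 11, 14 or 17. XAF1, a partner of the apoptosis inhibitor XIAP, had 1.87 and 4.93 FPKM in GFP+mCherry+ cells, against 0.232, 0.476 and 0.905 FPKM in GFP-mCherry+ cells. The groups did not overlap, the difference was 1.45 ± 0.33 (adjusted p = 0.00486), and without library 13 it was 0.92 (adjusted p = 0.135). IFI44 had 7.89 and 13.4 FPKM in GFP+mCherry+ cells, against 1.12, 2.20 and 2.91 FPKM in GFP-mCherry+ cells. Here too the groups did not overlap, with a difference of 1.93 ± 0.48 (adjusted p = 0.00839), and without library 13 of 1.58 (adjusted p = 0.131). Its neighbour on chromosome 1, IFI44L, had 2.45 and 7.03 FPKM in GFP+mCherry+ cells, against 0.364, 1.05 and 1.68 FPKM in GFP-mCherry+ cells. The difference of 1.43 ± 0.47 (adjusted p = 0.0348) lost its call without library 13 (0.82, adjusted p = 0.418), 11 (1.17, adjusted p = 0.117) or 14 (1.46, adjusted p = 0.0506).

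ISG20, an exonuclease that degrades single-stranded RNA, had 0.743 and 14.6 FPKM in GFP+mCherry+ cells, against 0.0932, 0.728 and 0.437 FPKM in GFP-mCherry+ cells. Library 13 alone stood far above the rest, and library 10 was just over the highest GFP-mCherry+ library. The difference was 1.90 ± 0.62 (adjusted p = 0.0345). It was 0.32 without library 13 (adjusted p = 0.748) and 3.49 without library 10 (adjusted p = 0.000339). Its call was also lost without library 11 (1.73, adjusted p = 0.0951) or 17 (1.93, adjusted p = 0.0689). OAS3, the OAS enzyme that senses long double-stranded RNA, had 0.855 and 4.62 FPKM in GFP+mCherry+ cells, against 0.130, 0.163 and 0.526 FPKM in GFP-mCherry+ cells. The groups did not overlap, but library 13 again carried the difference of 1.36 ± 0.41 (adjusted p = 0.0224). That difference was 0.56 without library 13 (adjusted p = 0.454), 2.16 without library 10 (adjusted p = 0.00235) and 1.28 without library 11 (adjusted p = 0.0622).

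IFITM1 went the other way between the GFP+mCherry+ libraries. It was listed at 247 and 53.2 FPKM in GFP+mCherry+ cells, against 39.1, 39.5 and 25.3 FPKM in GFP-mCherry+ cells. Library 10 was the high one here, and the difference was 1.73 ± 0.52 (adjusted p = 0.0232). It was 0.63 without library 10 (adjusted p = 0.376), 2.83 without library 13 (adjusted p = 0.00525) and 1.52 without library 17 (adjusted p = 0.0759). With only the compared groups in the fit, 6 genes were called (11.7% of all tested genes in either direction, against 25.5% with all groups), with IFI6 gained. IFITM1 and IFI44L then missed the threshold (adjusted p = 0.0704 and 0.0695), ISG20 and OAS3 fell under the filter on low values and were not tested. With no filter on low values IFI44L and ISG20 missed the threshold (adjusted p = 0.0571 and 0.0608). Of the other 19 tested genes none was called. OAS1, which had 4.50 and 13.8 FPKM in GFP+mCherry+ cells against 0.483, 1.78 and 3.92 FPKM in GFP-mCherry+ cells, did not overlap between the groups but missed the threshold (1.73 ± 0.74, adjusted p = 0.1). RSAD2 had a difference of 0.83 ± 0.30 (adjusted p = 0.0522). ISG15, the ubiquitin-like modifier of the interferon response, had the lowest difference, -1.01 ± 0.71 (adjusted p = 0.314).

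**Figure D3:**
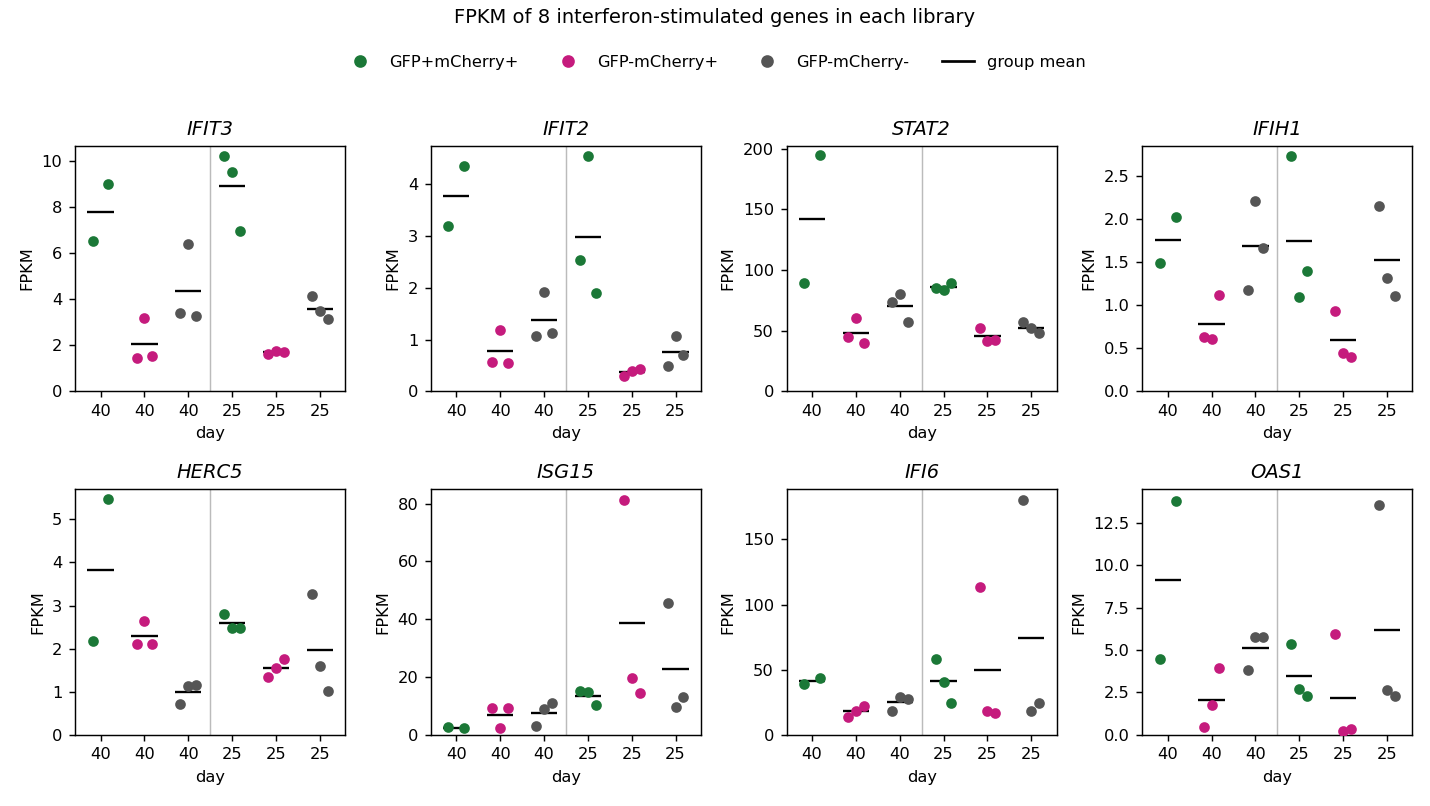
FPKM of 8 genes in each library, by group, with a line at each group mean. IFIT3 and IFIT2 are higher in every GFP+mCherry+ library than in every GFP-mCherry+ library of the same day, whereas IFI6 and ISG15 at day 25 are carried by libraries 2 and 3.

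Some reads at these loci could belong to other genes. In the hg19 coordinates of the table the locus of LIPA, which encodes lysosomal acid lipase, spans IFIT1, IFIT2 and IFIT3, and counting by strand is not stated. LIPA had 112 and 63.7 FPKM in GFP+mCherry+ cells at day 40, against 15.5, 21.7 and 25.7 FPKM in GFP-mCherry+ cells (1.99 ± 0.31, adjusted p = 0.000521). At day 25 LIPA had 31, 22.7 and 20.2 FPKM in GFP+mCherry+ cells, against 15.7, 10.1 and 12.2 FPKM in GFP-mCherry+ cells (0.90 ± 0.27, adjusted p = 0.0297). LIPA was thus higher along with IFIT2 and IFIT3 in this comparison at both days. GFP+mCherry+ cells were also above GFP-mCherry- cells in LIPA at day 40 (1.96 ± 0.31). Within GFP+mCherry+ cells LIPA was higher at day 40 than at day 25 (1.76 ± 0.31, limma, adjusted p = 0.003). Mean IFIT3 was 7.77 and 8.90 FPKM there, and mean IFIT2 3.77 and 2.99 FPKM. Between GFP-mCherry+ and GFP-mCherry- cells LIPA differed by -0.03 ± 0.27 at day 40 and -0.23 ± 0.27 at day 25. The part of LIPA in the IFIT values was not tested. IFIT1 and IFIT5 of the same cluster were not called in GFP+mCherry+ against GFP-mCherry+ cells at day 40. Their differences were 0.36 ± 0.43 (adjusted p = 0.575) and -0.32 ± 0.28 (adjusted p = 0.425). IFITM1 lies within the locus listed for IFITM2 on chromosome 11, and the IFITM genes are close in sequence, so their separate levels are uncertain.

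At day 25, 4 of the 28 tested genes were higher in GFP+mCherry+ than in GFP-mCherry+ cells (14.3%, against 12% of all tested genes) and 0 were lower (against 8.37%). The count of 4 is thus close to the background and is no result about the 28 genes. The median difference was 0.42, against 0.06 over all tested genes, and 8 genes did not overlap with GFP+mCherry+ on top (28.6%, against 23%). IFIT3 had 10.2, 9.53 and 6.94 FPKM in GFP+mCherry+ cells, against 1.63, 1.76 and 1.70 FPKM in GFP-mCherry+ cells. The lowest GFP+mCherry+ library was well above the highest GFP-mCherry+ library, and the difference was 1.86 ± 0.26 (adjusted p = 0.00038). IFIT2 had 2.53, 4.53 and 1.90 FPKM in GFP+mCherry+ cells, against 0.297, 0.383 and 0.438 FPKM in GFP-mCherry+ cells. The groups were again apart, with a difference of 1.48 ± 0.24 (adjusted p = 0.00116). Both genes kept their calls without any single library.

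STAT2 at day 25 had 85.0, 83.3 and 89.3 FPKM in GFP+mCherry+ cells, against 52.0, 41.7 and 42.0 FPKM in GFP-mCherry+ cells. The groups did not overlap, and the difference was 0.92 ± 0.24 (adjusted p = 0.014). It missed the threshold without library 5 (0.86, adjusted p = 0.0538) or library 8 (0.87, adjusted p = 0.0511). IFIH1 (MDA5; chr2:163123589-163175213), a sensor of long double-stranded RNA, had 2.74, 1.09 and 1.40 FPKM in GFP+mCherry+ cells, against 0.938, 0.450 and 0.400 FPKM in GFP-mCherry+ cells. The groups came close but did not overlap, with a difference of 0.75 ± 0.25 (adjusted p = 0.0426). That call was lost without library 1 (0.51, adjusted p = 0.178), 5 (0.69, adjusted p = 0.128), 7 (0.83, adjusted p = 0.069) or 8 (0.67, adjusted p = 0.139), and with median-of-ratios scaling (0.72, adjusted p = 0.0599) or only the compared groups in the fit (adjusted p = 0.0851). XAF1 (0.81 ± 0.29, adjusted p = 0.0621) and RSAD2 (0.68 ± 0.27, adjusted p = 0.0851) did not overlap between the groups and were not called.

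Of the 6 genes whose call at day 40 was lost without some single library, none was called at day 25. IFI44 had 3.19, 3.78 and 2.67 FPKM in GFP+mCherry+ cells, against 6.63, 1.70 and 0.747 FPKM in GFP-mCherry+ cells, where library 2 was above all 3 GFP+mCherry+ libraries. IFITM1 had 76.0, 85.7 and 104 FPKM in GFP+mCherry+ cells, against 113, 83.1 and 36.2 FPKM in GFP-mCherry+ cells, so these groups overlapped too. The change of the difference between the days was itself tested, and 0 of the 28 genes were called at day 40 against day 25 (limma; 0.0135% of all tested genes were called, and 1 of the 28 had an unadjusted p under 0.05). That gene was IFI44, with a change of 1.58 ± 0.64 (adjusted p = 0.654). IFIT3 changed by -0.31 ± 0.39 (adjusted p = 0.951). The day 25 comparison is therefore not shown to differ from that at day 40.

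**Figure D4:**
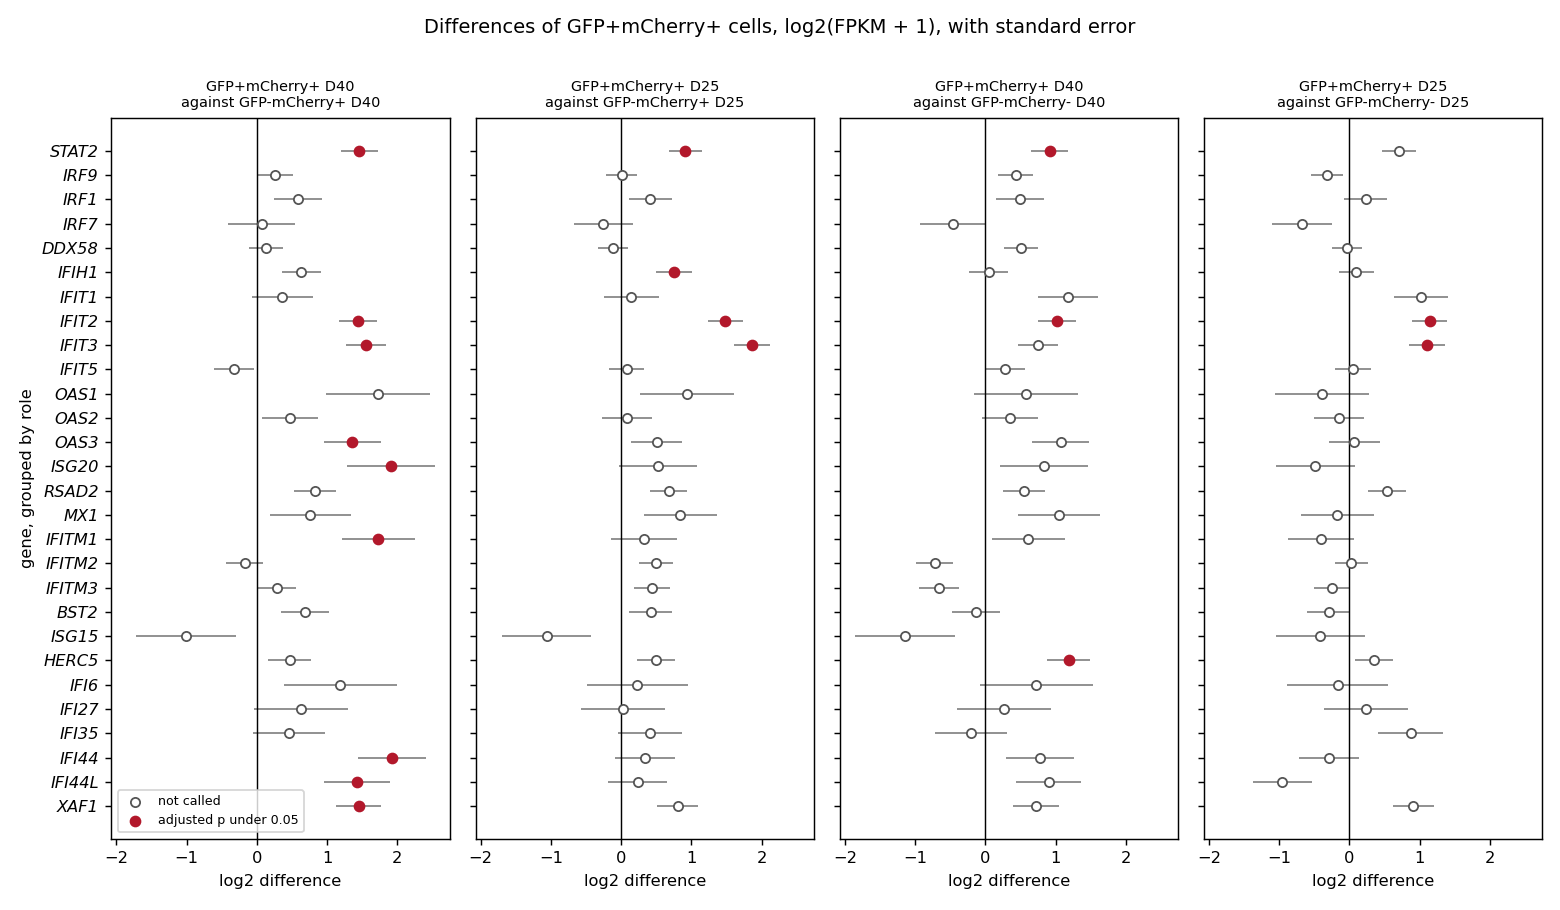
Differences in log2(FPKM + 1) with their standard errors for the 28 tested genes, in GFP+mCherry+ against GFP-mCherry+ and against GFP-mCherry- cells at each day; filled red points have an adjusted p under 0.05. IFIT2 is called in all 4 panels.

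GFP+mCherry+ cells were next set against GFP-mCherry- cells, with the same GFP+mCherry+ libraries as before, so the comparisons are not independent. At day 40, 3 genes were higher in GFP+mCherry+ cells (10.7%, against 7.03% of all tested genes) and 0 lower (against 4.75%), and 11 did not overlap with GFP+mCherry+ on top (39.3%, against 21.7%). The 2 without overlap in the other direction (7.14%, against 19.7%) were ISG15 and IFITM2. IFIT2 had 3.19 and 4.35 FPKM in GFP+mCherry+ cells, against 1.07, 1.91 and 1.12 FPKM in GFP-mCherry- cells, without overlap (1.02 ± 0.27, adjusted p = 0.0248). STAT2 had 89.4 and 195 FPKM in GFP+mCherry+ cells, against 73.6, 80.1 and 56.8 FPKM in GFP-mCherry- cells, and library 10 was only just above the highest GFP-mCherry- library (0.92 ± 0.27, adjusted p = 0.0354). HERC5 (chr4:89378268-89427314), the ligase that attaches ISG15 to new proteins, had 2.17 and 5.47 FPKM in GFP+mCherry+ cells, against 0.717, 1.12 and 1.16 FPKM in GFP-mCherry- cells. Its groups did not overlap, with a difference of 1.19 ± 0.31 (adjusted p = 0.0197). Without library 13 none of these was called (IFIT2 0.84, adjusted p = 0.235; STAT2 0.36, adjusted p = 0.539; HERC5 0.67, adjusted p = 0.339), with 3.22% of all tested genes called. Without library 10, 9 genes were called and 12.6% of all tested genes. STAT2 was then at 1.48 (adjusted p = 0.00338). IFIT2 was also lost without library 12 (0.93, adjusted p = 0.0546) or 18 (0.95, adjusted p = 0.0853), and STAT2 without library 18 (0.77, adjusted p = 0.13).

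At day 25, 2 genes were higher in GFP+mCherry+ than in GFP-mCherry- cells (7.14%, against 5.77% of all tested genes) and 0 lower (against 5.27%), a share close to the background. The median difference was -0.01, against -0.03 over all tested genes. Without overlap, 5 genes had GFP+mCherry+ on top (17.9%, against 15.7%) and 3 had GFP-mCherry- on top (10.7%, against 20.2%). IFIT3 had 10.2, 9.53 and 6.94 FPKM in GFP+mCherry+ cells, against 4.14, 3.47 and 3.12 FPKM in GFP-mCherry- cells. Its groups did not overlap (1.10 ± 0.26, adjusted p = 0.0121), and the call was lost without library 9 (1.03, adjusted p = 0.0544). IFIT2 had 2.53, 4.53 and 1.90 FPKM in GFP+mCherry+ cells, against 0.496, 1.07 and 0.705 FPKM in GFP-mCherry- cells, also apart (1.14 ± 0.24, adjusted p = 0.00724). XAF1 (0.91 ± 0.29, adjusted p = 0.0572) and STAT2 (0.71 ± 0.24, adjusted p = 0.0683) did not overlap but were not called.

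Between the populations without GFP, GFP-mCherry+ cells were lower than GFP-mCherry- cells in 2 genes at each day (7.14%), against 18.5% of all tested genes at day 40 and 16.4% at day 25, so the counts were below the background. None was higher, against 13.3% and 12.1%. At day 40, 4 genes lay above GFP-mCherry- cells without overlap (14.3%, against 17.5%) and 6 below (21.4%, against 22.6%). At day 25, 0 lay above (against 20.4%) and 7 below (25.0%, against 29.3%). IFIT3 was called at both days. At day 40 it had 1.44, 3.20 and 1.51 FPKM in GFP-mCherry+ cells, against 3.38, 6.38 and 3.27 FPKM in GFP-mCherry- cells, with library 14 just under the lowest GFP-mCherry- library (-0.81 ± 0.26, adjusted p = 0.0248). The call was lost without library 11 (-0.67, adjusted p = 0.0929), 15 (-0.55, adjusted p = 0.142) or 17 (-0.69, adjusted p = 0.0906). At day 25 it had 1.63, 1.76 and 1.70 FPKM in GFP-mCherry+ cells, against 4.14, 3.47 and 3.12 FPKM in GFP-mCherry- cells. These groups were far apart (-0.76 ± 0.26, adjusted p = 0.0363), yet the call was lost without any one of the 6 libraries. The values were -0.74 without library 2 (adjusted p = 0.0822), -0.67 without 3 (0.11), -0.77 without 5 (0.0796), -0.77 without 6 (0.0802), -0.76 without 8 (0.0829) and -0.83 without 9 (0.0591).

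IFITM3, which blocks viral entry from endosomes, had 308, 225 and 235 FPKM in GFP-mCherry+ cells at day 40, against 349, 684 and 483 FPKM in GFP-mCherry- cells. The groups did not overlap, and the difference was -0.94 ± 0.25 (adjusted p = 0.01), or -0.69 without library 15 (adjusted p = 0.0636). At day 25 it had 408, 367 and 327 FPKM in GFP-mCherry+ cells, against 648, 545 and 585 FPKM in GFP-mCherry- cells, and was not called (adjusted p = 0.0515). IFI44L had 2.72, 0.685 and 0.126 FPKM in GFP-mCherry+ cells at day 25, against 6.00, 2.76 and 2.19 FPKM in GFP-mCherry- cells, where library 2 overlapped the other group. Its call (-1.19 ± 0.42, adjusted p = 0.0429) was lost without library 3 (-0.85, adjusted p = 0.181), 5 (-1.10, adjusted p = 0.121), 6 (-1.30, adjusted p = 0.0669) or 8 (-0.81, adjusted p = 0.209). For IFIT3 the order of the populations was thus GFP+mCherry+, then GFP-mCherry-, then GFP-mCherry+ at both days. The top pair in this order did not pass the test at day 40 (0.75 ± 0.29, adjusted p = 0.0995).

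Between the days no gene was called in any population by limma. The share called over all tested genes was 4.01% in GFP+mCherry+, 4.55% in GFP-mCherry+ and 3.87% in GFP-mCherry- cells, and 8, 3 and 2 of the 28 genes had an unadjusted p under 0.05 in the same populations. In GFP+mCherry+ cells 8 genes lay higher at day 40 without overlap (28.6%, against 13%) and 4 lower (14.3%, against 20.9%). In GFP-mCherry+ cells these were 2 (7.14%, against 6.24%) and 3 (10.7%, against 14.2%), and in GFP-mCherry- cells 3 (10.7%, against 9.44%) and 2 (7.14%, against 16.9%). The 4 genes whose values follow were chosen after their values were seen. ISG15 (chr1:948803-949920) had 2.78 and 2.22 FPKM in GFP+mCherry+ cells at day 40, against 15.3, 14.9 and 10.4 FPKM at day 25. In GFP-mCherry+ cells it had 9.19, 2.37 and 9.16 FPKM at day 40, against 81.1, 19.8 and 14.6 FPKM at day 25. The days did not overlap in either mCherry+ population, with differences of -2.04 ± 0.71 (adjusted p = 0.118) and -2.09 ± 0.64 (adjusted p = 0.0743). In GFP-mCherry- cells ISG15 had 2.87, 8.88 and 10.9 FPKM at day 40, against 45.6, 9.65 and 13.2 FPKM at day 25, and the days overlapped (-1.32 ± 0.64, adjusted p = 0.295). IRF7 at day 40 had 2.13 and 2.87 FPKM in GFP+mCherry+ cells, against 3.85, 6.92 and 6.51 FPKM at day 25. Its days did not overlap in any population, and the differences were -0.92 ± 0.47 (adjusted p = 0.295) in GFP+mCherry+, -1.24 ± 0.42 (0.108) in GFP-mCherry+ and -1.14 ± 0.42 (0.162) in GFP-mCherry- cells.

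IFI6, a small mitochondrial and endoplasmic reticulum protein, shows how single libraries set a group mean. At day 25 it had 58.4, 40.3 and 24.7 FPKM in GFP+mCherry+ cells, 113, 18.3 and 16.5 FPKM in GFP-mCherry+ cells and 180.3, 18.2 and 24.7 FPKM in GFP-mCherry- cells. Libraries 2 and 3 were the high ones, and the other libraries of both groups lay at or under 24.7 FPKM, the value of the lowest GFP+mCherry+ library. OAS1 at day 25 was alike, with 5.33, 2.72 and 2.31 FPKM in GFP+mCherry+ cells, 5.95, 0.203 and 0.327 FPKM in GFP-mCherry+ cells and 13.5, 2.66 and 2.29 FPKM in GFP-mCherry- cells. IFIT2 and IFIT3 were not raised in libraries 2 and 3 in this way. Without libraries 2 and 3, a choice made after the data were seen, 7 genes were called in GFP+mCherry+ against GFP-mCherry+ cells at day 25, with IFI44, IFI6 and OAS1 added, while 14.9% of all tested genes were called in either direction (20.4% with all libraries). The count between the days depended on single libraries too. Without library 10, 5 genes were called in GFP+mCherry+ cells (IFITM2 lower, and ISG20, OAS3, STAT2 and XAF1 higher at day 40), and ISG20 in the change of the difference (0.291% of all tested genes). Of all tested genes 6.36% were called in GFP+mCherry+ cells at that setting, against 4.01% with all libraries. Without library 11, BST2, IRF7 and ISG15 were lower at day 40 in GFP-mCherry+ cells, and without library 8 ISG15 was (10.9% and 4.97% of all tested genes called).

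Of the genes too low to test, OASL was listed at 1.41 and 0.837 FPKM in GFP+mCherry+ cells at day 40 and at no more than 0.154 FPKM in any other library, so its highest group was apart from all others. MX2 was listed at 2.25 FPKM in library 10 and 0.283 FPKM in library 13. USP18, which removes ISG15 from proteins and damps the receptor, ran from 0.138 to 1.18 FPKM. OASL and MX2 were listed at 0 in library 8, the only values at 0 among the 31 genes.

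The rest of the pathway was described from lists of named genes. Calls in these lists, and in the marker lists below, were made with all libraries and were not repeated with any library left out. Of 24 interferon genes 21 were in the table, and none reached 1 FPKM in 2 libraries. Their summed level was at most 1.03 FPKM in any library, and 20 of the 21 were listed at 0 in both GFP+mCherry+ libraries of day 40. The receptor and JAK-STAT list had 12 genes, of which 11 were in the table, all with a group mean of at least 1 FPKM in every group. Of these, GFP+mCherry+ cells were higher than GFP-mCherry+ cells in 2 (18.2%) and lower in 1 (9.09%) at day 40, and higher in 2 (18.2%) at day 25. These shares are close to those of all tested genes (16.2% higher and 9.3% lower at day 40, 12% higher at day 25) and are no result about the list. IFNGR1, a chain of the interferon gamma receptor, had differences of 1.19 ± 0.23 at day 40 (adjusted p = 0.00169) and 0.71 ± 0.20 at day 25 (adjusted p = 0.0213). IL10RB, shared by the type III receptor, was higher at day 40 (1.06 ± 0.23, adjusted p = 0.00406), where its partner IFNLR1 was lower (-0.90 ± 0.24, adjusted p = 0.0139). JAK2 was higher at day 25 (0.81 ± 0.25, adjusted p = 0.0315).

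Among 14 tested sensors and adaptors, 3 were higher and 1 lower in GFP+mCherry+ than in GFP-mCherry+ cells at day 40 (21.4% and 7.14%, against 16.2% and 9.3% of all tested genes), and 1 was higher and 1 lower at day 25 (7.14% each, against 12% and 8.37%). DHX58 (LGP2), a relative of DDX58 and IFIH1, had 3.18 and 2.09 FPKM in GFP+mCherry+ cells at day 40, against 0.418, 1.10 and 0.414 FPKM in GFP-mCherry+ cells. It was called at day 40 (1.15 ± 0.25, adjusted p = 0.0036) and at day 25 (1.26 ± 0.22, adjusted p = 0.00168). TMEM173 (STING), the adaptor of DNA sensing, was lower at both days (-0.61 ± 0.20, adjusted p = 0.0362, at day 40 and -0.92 ± 0.18, adjusted p = 0.00301, at day 25). TLR7 and EIF2AK2 (PKR) were higher at day 40. Of 6 further IRF factors 2 were higher at each day, IRF5 and IRF8 at day 40 and IRF8 and IRF4 at day 25 (33.3%, against 16.2% and 12% of all tested genes). The list of feedback regulators, 8 genes, also held UBA7, the enzyme that activates ISG15 for conjugation. UBA7 was the 1 called (12.5%, against the same 16.2% and 12%). It was higher at both days (0.84 ± 0.24, adjusted p = 0.0192, at day 40 and 1.04 ± 0.22, adjusted p = 0.00436, at day 25). None of the other genes of that list was called at either day.

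A list of 37 other interferon-stimulated genes, also chosen with earlier results of these data known, had 35 tested. In GFP+mCherry+ against GFP-mCherry+ cells 18 were higher and 1 lower at day 40 (51.4% higher, against 16.2% of all tested genes), with a median difference of 0.77. At day 25 15 were higher and 1 lower (42.9% higher, against 12%), with a median of 0.55. SP100, a nuclear body protein, had 38.2 and 42.4 FPKM in GFP+mCherry+ cells at day 40, against 7.23, 15.0 and 8.5 FPKM in GFP-mCherry+ cells, without overlap (1.94 ± 0.32, adjusted p = 0.000728). EPSTI1 had 44.4, 47.4 and 42.5 FPKM in GFP+mCherry+ cells at day 25, against 16.6, 14.8 and 14.8 FPKM in GFP-mCherry+ cells, also without overlap (1.48 ± 0.24, adjusted p = 0.00117). PARP12 was the exception, at -1.09 ± 0.24 at day 40 (adjusted p = 0.00436). Against GFP-mCherry- cells at day 40, IFI30 (2.87 ± 0.43, limma, adjusted p = 0.000645) and SAMHD1 (1.11 ± 0.29, adjusted p = 0.0228) were higher (5.71%, against 7.03% of all tested genes). TRIM21 was lower (2.86%, against 4.75%). These shares are close to the background and are no result about the list. At day 25, 0 of the 35 were called, against 5.77% higher and 5.27% lower of all tested genes. GFP-mCherry+ cells were lower than GFP-mCherry- cells in 11 of the 35 at day 40 (31.4%, against 18.5% of all tested genes) and in 14 at day 25 (40.0%, against 16.4%). They were higher in 3 (8.57%, against 13.3%) and 2 (5.71%, against 12.1%). Markers of other cells were lower in GFP-mCherry+ cells in the same comparison: 9 of 10 epithelial markers at each day, 9 and 10 of 10 epicardial, 8 and 6 of 10 fibroblast and 6 and 7 of 8 endothelial markers at day 40 and day 25. Their part in these counts was not tested.

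Of 16 genes of class I antigen presentation, GFP+mCherry+ cells were higher than GFP-mCherry+ cells in 3 and lower in 2 at day 40 (18.8% and 12.5%, close to the 16.2% and 9.3% of all tested genes). At day 25 they were higher in 5 and lower in 1 (31.2% and 6.25%, against 12% and 8.37%). HLA-E had the smallest adjusted p, with 61.9 and 60.2 FPKM in GFP+mCherry+ cells at day 40, against 17.6, 21.1 and 12.7 FPKM in GFP-mCherry+ cells (1.80 ± 0.23, adjusted p = 0.000189). PSME1, a proteasome activator subunit, was lower at both days (-0.92 ± 0.18, adjusted p = 0.0021, and -0.76 ± 0.16, adjusted p = 0.00469). HLA-B was higher at day 40 than at day 25 in all 3 populations, by 1.51 ± 0.35 in GFP+mCherry+ (adjusted p = 0.0237), 1.80 ± 0.32 in GFP-mCherry+ (0.00819) and 1.46 ± 0.32 in GFP-mCherry- cells (0.0193). HLA genes are close in sequence, so their separate levels are uncertain.

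Markers of other cells differed between the populations as well. The summed level of 12 macrophage and blood markers was 198 to 476 FPKM in GFP+mCherry+ cells at day 40, against 61.7 to 108 FPKM in GFP-mCherry+ and 49.98 to 62.0 FPKM in GFP-mCherry- cells. Of the 12, 10 were higher in GFP+mCherry+ than in GFP-mCherry+ cells at day 40 (83.3%, against 16.2% of all tested genes), among them PTPRC, the pan-leukocyte CD45 (8.92 and 8.43 FPKM in GFP+mCherry+, against 0.918, 4.69 and 2.03 FPKM in GFP-mCherry+ cells). None of the 12 was listed at 0 in all libraries of a group. Library 10 had the higher macrophage sum (476 FPKM) and library 13 the lower (198 FPKM), while library 13 was the higher for 21 of the 31 interferon-stimulated genes. The part of these cells in the day 40 differences was not tested. At day 25 the sums overlapped, at 27.5 to 39.2 FPKM in GFP+mCherry+ and 3.00 to 36.0 FPKM in GFP-mCherry+ cells, with CD68 alone called (8.33%, against 12%). The differences at day 25 and day 40 were 1.86 and 1.56 for IFIT3, 1.48 and 1.44 for IFIT2, and 0.92 and 1.46 for STAT2, and the other 6 genes called at day 40 were not called at day 25.

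Cardiomyocyte markers, 12 genes, summed to 7059 to 11912 FPKM in GFP+mCherry+ cells at day 40, against 19456 to 33581 FPKM in GFP-mCherry+ and 751 to 3305 FPKM in GFP-mCherry- cells. At day 25 they summed to 6560 to 15878 FPKM in GFP+mCherry+, 25372 to 32909 FPKM in GFP-mCherry+ and 802 to 1191 FPKM in GFP-mCherry- cells. The mCherry+ labels thus went with cardiomyocyte transcripts at both days, and GFP-mCherry- cells, labelled sinoatrial-node-like as well, had the lowest sums. Fibroblast markers, 10 genes, ran the other way between the mCherry+ populations, at 11470 to 12507 FPKM in GFP+mCherry+ against 1986 to 7388 FPKM in GFP-mCherry+ cells at day 40, and at 8566 to 14200 FPKM in GFP+mCherry+ against 2942 to 4045 FPKM in GFP-mCherry+ cells at day 25. Epicardial markers summed to 586 to 615 FPKM in GFP+mCherry+ against 101 to 159 FPKM in GFP-mCherry+ cells at day 40, and to 422 to 928 FPKM in GFP+mCherry+ against 130 to 257 FPKM in GFP-mCherry+ cells at day 25. Endothelial markers summed to 217 to 241 FPKM in GFP+mCherry+ against 24.8 to 57.4 FPKM in GFP-mCherry+ cells at day 40, and at day 25 to 52.1 to 234 FPKM in GFP+mCherry+ against 42.1 to 51.9 FPKM in GFP-mCherry+ cells. KDR made up most of the GFP+mCherry+ sum at day 40, with 221 and 200.4 FPKM, and only KDR and TEK of the 8 tested endothelial markers were called at either day, with a median difference of 0.14 at day 40 and -0.09 at day 25. Epithelial markers summed to 1054 to 1344 FPKM in GFP+mCherry+ against 743 to 1046 FPKM in GFP-mCherry+ cells at day 40, and at day 25 to 1789 to 1904 FPKM in GFP+mCherry+ against 944 to 1276 FPKM in GFP-mCherry+ cells. Of these 10 markers, 2 were called higher and 1 lower at day 40 (20.0% and 10.0%, close to the 16.2% and 9.3% of all tested genes). At day 25, 6 were called higher and 0 lower (60.0% higher, against 12% of all tested genes). Several of the marker sums thus differed between the sorted populations along with the interferon-stimulated genes. Bulk RNA does not show whether the make-up of the populations differed. The part of make-up in the differences of the interferon-stimulated genes was not tested.

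**Figure D5:**
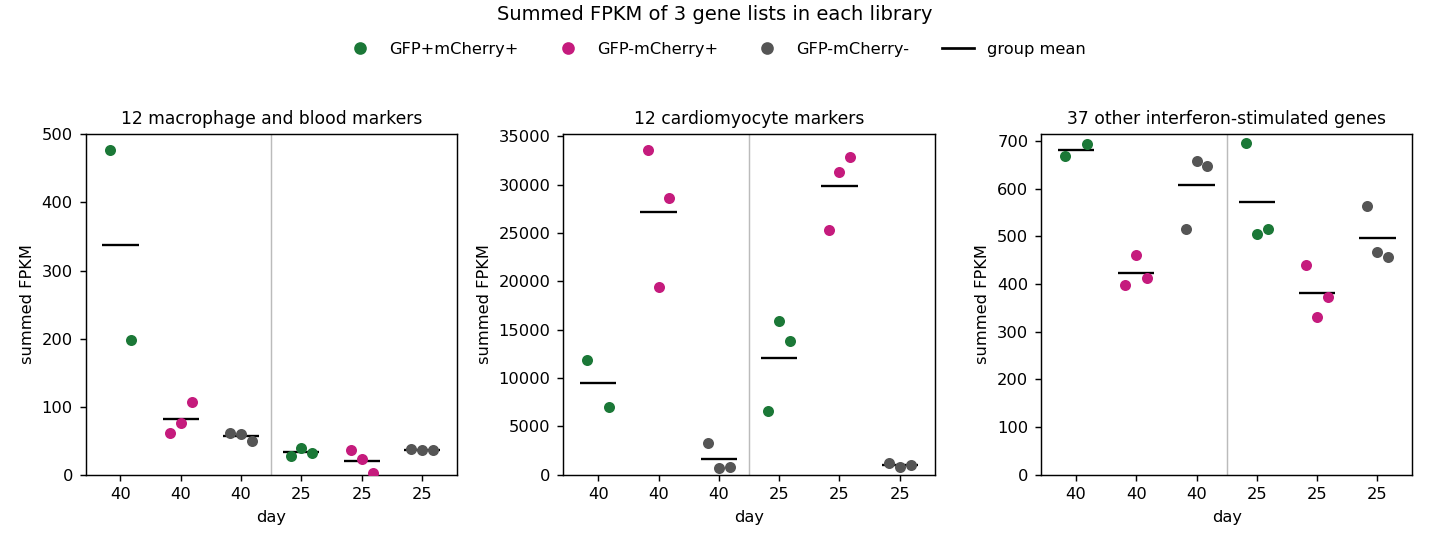
Summed FPKM per library of 12 macrophage and blood markers, 12 cardiomyocyte markers and 37 other interferon-stimulated genes, by group. The macrophage sum is highest in library 10 (476 FPKM), and the sum of the other interferon-stimulated genes is 668 to 693 FPKM in GFP+mCherry+ cells at day 40, against 397 to 461 FPKM in GFP-mCherry+ cells.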

How the data were processed

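RNA-seq of 17 libraries was analysed from the authors' deposited table of FPKM. The unit is not in the header and was inferred from Cufflinks and from the values. Per the submitters' processing notes, the build was hg19 and the tools were Cufflinks 2.1.1, STAR 2.5.2b, cutadapt and bcl2fastq 2.19, and per the labels' protocols libraries were made with TruSeq reagents. FPKM hides read depth, so precision rests on replicates alone. Of rows that shared a name, the row with the highest mean was kept (20368 rows, 20218 genes). Values were transformed to log2(FPKM + 1). The 14845 genes that reached 1 FPKM in 2 or more libraries were fitted with limma 3.58.1 (6 group means, eBayes with a trend) in R 4.3.3, and p-values were Benjamini-Hochberg adjusted within each of 10 comparisons. The procedure was tested on simulated data. The members and lists were chosen with earlier results of these data known. By rule, values per library are given for members called between populations (at most 12) and between days (at most 6), and up to 4 genes of every other list are named; other genes named were chosen after their values were seen. Alternatives were a pseudocount of 0.1, no filter or one at 5 FPKM, median-of-ratios scaling, only the compared groups, and each library left out; leaving out libraries 2 and 3 or 13 and 14, and a replicate block over runs of 3 successive libraries, were added after the data were seen. Promoters were searched in RefSeq sequences of GRCh38.p14. The deposited table holds no library numbered 16, so none was analysed.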

Additional observations from a re-analysis of the deposited data

How the results depend on the processing

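Counts of called members are followed in brackets by the share of all tested genes called in either direction at the same setting. Some counts of 0 and some ranges over single libraries left out have no bracketed share. The settings reported called 9 (25.5%) at day 40 and 4 (20.4%) at day 25 in GFP+mCherry+ against GFP-mCherry+ cells, 3 (11.8%) and 2 (11%) in GFP+mCherry+ against GFP-mCherry- cells, 2 (31.9%) and 2 (28.5%) in GFP-mCherry+ against GFP-mCherry- cells, and 0 in the day comparisons and the change between days. With a filter at 5 FPKM, which leaves 19 members to test, the first 4 counts were 5 (26.5%), 2 (22.7%), 1 (11.1%) and 1 (11%). With only the compared groups in the fit, they were 6 (11.7%), 4 (23.8%), 0 (4.42%) and 4 (14.9%), GFP-mCherry+ against GFP-mCherry- called 4 (23.6%) at day 40 and 5 (37.4%) at day 25, and the days in GFP+mCherry+ cells 1 (ISG15; 2.16%). For GFP-mCherry+ against GFP-mCherry-, median-of-ratios scaling gave 4 (33%) at day 40 and 0 (28.2%) at day 25, and no filter 0 (22.6%) at day 25. With no filter OASL was the 1 member called between the days in GFP+mCherry+ cells (3.26%) and in the change (0.241%). Without libraries 13 and 14, GFP+mCherry+ against GFP-mCherry+ at day 40 called 4 (12%), GFP+mCherry+ against GFP-mCherry- 0 (3.78%) at day 40 and 4 (13.3%) at day 25, GFP-mCherry+ against GFP-mCherry- 5 (31.9%) at day 40, and the days in GFP-mCherry- cells 1 (XAF1; 5.11%). Without libraries 2 and 3, GFP+mCherry+ against GFP-mCherry+ at day 25 called 7 (14.9%), GFP-mCherry+ against GFP-mCherry- 4 (30.2%) at day 40 and 1 (22.4%) at day 25, and the days in GFP+mCherry+ cells 2 (IFI44 and ISG15; 3.14%). Leaving out single libraries gave 4 to 10 (7.72% without library 13 and 25.8% without library 10) and 2 to 4 calls in GFP+mCherry+ against GFP-mCherry+, 0 to 9 (3.22% and 12.6% without the same libraries) and 1 to 2 against GFP-mCherry-, 0 to 4 and 0 to 4 in GFP-mCherry+ against GFP-mCherry-, 0 to 5, 0 to 3 and 0 to 0 between the days in GFP+mCherry+, GFP-mCherry+ and GFP-mCherry- cells, and 0 to 1 in the change; a group left with 1 library is assumed to vary like the others. The shares over these single omissions were 11.9% to 15.9% at day 25 in GFP+mCherry+ against GFP-mCherry+ cells and 5.76% to 9.12% against GFP-mCherry- cells. In GFP-mCherry+ against GFP-mCherry- cells they were 22.9% to 31% at day 40 and 21% to 25.8% at day 25. Between the days they were 0.527% to 10.9% in GFP-mCherry+ and 1.03% to 2.96% in GFP-mCherry- cells. No label pairs the libraries. A replicate block on sets of 3 consecutive library numbers, chosen after the data were seen, gave 12 (25.7%) and 6 (24.1%) in GFP+mCherry+ against GFP-mCherry+, 4 (10.1%) and 5 (14%) against GFP-mCherry-, 9 (34.7%) and 5 (31.5%) in GFP-mCherry+ against GFP-mCherry-, and 0 in the change. Deviations from the group means correlated above 0.1 in 10 of the 16 pairs of libraries within a set (-0.12 to 0.46). IFITM1 lost its call under the block (1.51, adjusted p = 0.0558), and the days have no such fit because every set lies within a day. Apart from the smaller number of members at 5 FPKM, the cause was not tested. Of the values of called members under these settings, 217 kept their call, 68 lost it and 0 reversed. The 2 GFP+mCherry+ libraries at day 40 and the unknown read depth limit the low genes most.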
